A study of Mus musculus with 13 samples.

Results

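The 38 Hox genes described here were taken by name, not by any measured value, from the 21938 protein-coding genes of the GENCODE vM21 annotation of the mouse mm10 assembly. They fall into 4 clusters: HoxA on chromosome 6 (10 listed genes), HoxB on chromosome 11 (10), HoxC on chromosome 15 (9) and HoxD on chromosome 2 (9). Each gene was read as its annotated span plus 2 kb on each side, called its window, and each cluster also as one span from its first to its last listed gene with the same 2 kb at both ends. The spans were 102 kb for HoxA, 178 kb for HoxB, 120 kb for HoxC and 101 kb for HoxD. Of the 38 windows, 29 overlapped another listed window, so 1 peak can count for several genes. Hoxa3, Hoxc5, Hoxd3 and Hoxd4 have annotated spans that run across neighbouring Hox genes, and a peak inside their windows may lie at the promoter of another gene.

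Hox genes encode homeodomain transcription factors that give cells their position along the body axis. Within a cluster the genes lie in the order in which they are used: low-numbered genes at one end act toward the head and early, and high-numbered genes at the other end act toward the tail and in the limb buds, late. Fibroblasts keep the Hox pattern of the body site they came from. Polycomb complexes hold unused parts of the clusters silent, Trithorax/MLL complexes keep used parts active, and HOX proteins often bind DNA together with PBX and MEIS cofactors.

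Chromatin immunoprecipitation and sequencing (ChIP-seq) was carried out on mouse embryonic fibroblasts (MEFs) to ask where SMAD3, the DNA-binding mediator of TGF-β and activin signals, and OCT4, a pluripotency factor, bound early in reprogramming. All MEFs came from the TNG MKOS mouse line, with a GFP reporter in 1 Nanog allele (Nanog+/GFP), the MKOS cassette tetO-MKOS-ires-mOrange in 1 Sp3 allele, and rtTA driven by the CAG promoter. Doxycycline (dox) then switches on the reprogramming factors of the cassette, Oct4 among them. All cells, those without dox included, had been infected with a retrovirus expressing Smad3CA, a constitutively active SMAD3. The cells came from embryos of both sexes on a mixed strain background, were held in embryonic stem cell medium with LIF, and were taken on day 3. OCT4 was precipitated from cells with 1 µg/ml dox (OCT4 Dox+, n = 3), and SMAD3 from cells with 1 µg/ml dox (SMAD3 Dox+, n = 3) and without dox (SMAD3 Dox-, n = 3). The dose is the labels', and the study's methods give a lower one for reprogramming in general. Input DNA came from 2 samples with dox and 2 without. No group without Smad3CA was analysed here, and the labels do not say whether replicates were separate cultures, so spreads and p-values may measure technical differences. Peaks hold no expression values, so the fibroblast label was not checked against marker genes.

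The replicate peak lists differed in length by more than any effect described here. SMAD3 Dox+ replicates 1, 2 and 3 held 420, 23981 and 10374 peaks, and SMAD3 Dox- replicates held 1656, 18588 and 4038. The lists give no read counts, so the depth behind each is unknown, and a gene without a peak may be one whose binding was not detectable. A merged list was called by the authors on the pooled replicates of each group and has no replicate error. The longest list of each group, replicate 2, also gave the most Hox genes of its group, while the shortest, Dox+ replicate 1, held 2 Hox peaks and the longer Dox- replicate 1 none. The part of list length in the counts below was not tested beyond the values given with and without single lists.

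The results that follow turn on 6 stretches of DNA, which are shown here from the GRCm38.p6 assembly, the same genome as mm10. They are the 3 RefSeq promoters (250 bases before to 50 after the start) among the Hox genes that SMAD3 peaks touched in at least 3 of the 6 replicate lists, the central 300 bases of the 2 Hox regions that the authors' tables of differential binding list, and the central 300 bases of the merged Hox peak with the highest fold enrichment. Capitals mark the SMAD half-site CAGAC or its complement GTCTG, and each sequence is written 5′ to 3′ on the strand named.
Promoter of Hoxa2 (chr6:52164782-52165081, - strand): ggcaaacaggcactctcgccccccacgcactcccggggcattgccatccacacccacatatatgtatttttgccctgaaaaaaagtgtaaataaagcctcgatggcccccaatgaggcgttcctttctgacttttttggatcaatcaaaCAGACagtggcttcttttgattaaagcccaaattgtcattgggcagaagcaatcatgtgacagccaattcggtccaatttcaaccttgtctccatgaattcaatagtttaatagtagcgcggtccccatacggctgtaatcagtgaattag
Promoter of Hoxa3 (chr6:52213018-52213317, - strand): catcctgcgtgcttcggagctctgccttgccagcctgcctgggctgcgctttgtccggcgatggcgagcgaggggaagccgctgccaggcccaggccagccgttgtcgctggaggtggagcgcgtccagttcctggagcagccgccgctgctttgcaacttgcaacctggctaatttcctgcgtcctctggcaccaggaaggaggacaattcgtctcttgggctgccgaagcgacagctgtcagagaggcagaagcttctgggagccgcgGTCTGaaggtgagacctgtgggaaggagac
Promoter of Hoxd13 (chr2:74667975-74668274, + strand): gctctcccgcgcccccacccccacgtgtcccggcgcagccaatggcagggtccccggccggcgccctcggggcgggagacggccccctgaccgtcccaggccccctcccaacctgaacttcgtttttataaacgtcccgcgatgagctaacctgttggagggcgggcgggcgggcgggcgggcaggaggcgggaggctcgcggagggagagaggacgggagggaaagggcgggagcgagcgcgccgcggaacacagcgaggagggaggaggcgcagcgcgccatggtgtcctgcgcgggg
Listed region at Hoxa4 (chr6:52191344-52191643, + strand): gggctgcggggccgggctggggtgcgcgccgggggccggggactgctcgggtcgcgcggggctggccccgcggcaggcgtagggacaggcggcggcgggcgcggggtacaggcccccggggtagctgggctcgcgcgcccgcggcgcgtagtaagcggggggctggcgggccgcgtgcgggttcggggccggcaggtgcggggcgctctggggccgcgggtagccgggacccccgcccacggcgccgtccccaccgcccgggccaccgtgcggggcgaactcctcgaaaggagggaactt
Listed region at Hoxb9 (chr11:96270887-96271186, + strand): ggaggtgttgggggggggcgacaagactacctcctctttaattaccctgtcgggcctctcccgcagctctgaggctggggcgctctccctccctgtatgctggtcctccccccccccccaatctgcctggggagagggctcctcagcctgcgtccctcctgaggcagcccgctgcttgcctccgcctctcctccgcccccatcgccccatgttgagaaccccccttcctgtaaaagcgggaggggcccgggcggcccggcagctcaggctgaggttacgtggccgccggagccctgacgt
Peak at Hoxb4 (chr11:96320388-96320687, + strand): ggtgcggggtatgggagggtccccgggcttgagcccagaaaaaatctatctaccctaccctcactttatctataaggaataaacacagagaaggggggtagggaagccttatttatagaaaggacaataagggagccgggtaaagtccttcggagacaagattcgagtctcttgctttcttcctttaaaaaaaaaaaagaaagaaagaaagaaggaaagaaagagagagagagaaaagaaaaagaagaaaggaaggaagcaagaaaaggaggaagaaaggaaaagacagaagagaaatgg
The Hoxa2 and Hoxa3 promoters held 1 half-site each and the other sequences held none, which says only that these letters are not in these windows. The Hoxa4 region had a GC content of 82.3% and 48 CpG dinucleotides in its 300 bases, and the Hoxd13 promoter 74.3% and 37. The Hoxb4 peak lay at the other extreme, with 42.0% and 5, and its last part is almost all A and G.

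SMAD3 peaks were found in all 4 clusters, with few or none at the tail-most ends of HoxB and HoxC. None lay in the windows of the head-most genes Hoxb1 and Hoxd1. Of the 38 gene windows, SMAD3 Dox+ replicates 1, 2 and 3 touched 2, 30 and 17, where all protein-coding genes gave shares of 2.04%, 57.2% and 41.2%. SMAD3 Dox- replicates touched 0, 24 and 8, where all genes gave 8.59%, 50.1% and 17.9%. Windows of Hox genes are short, with a median of 7496 bp against 21425 bp for all protein-coding genes. At least 2 Dox+ lists touched 17 Hox genes (40.5% of all genes), and at least 2 Dox- lists touched 8 (20.2% of all genes). These counts rest on replicates 2 and 3: without Dox+ replicate 2 or without Dox+ replicate 3 the first falls to 2 genes, and without Dox- replicate 2 or without Dox- replicate 3 the second falls to 0.

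A peak in at least 2 lists of both groups was found at 6 genes: Hoxa2, Hoxa7, Hoxc4, Hoxc5, Hoxc6 and Hoxd3. No gene had one in more than 4 of the 6 lists. No replicate list had a SMAD3 peak at 8 genes: Hoxb1, Hoxb13, Hoxc8, Hoxc10, Hoxc11, Hoxc12, Hoxc13 and Hoxd1. These 8 include both end genes of HoxB, the head-most gene of HoxD and the whole tail-most run of HoxC. A peak in any of the 6 lists was found at 30 of the 38 Hox genes and at 13492 of all 21938 protein-coding genes. Lacking a peak is thus not particular to Hox genes, and the places of these 8 were not tested. The count of 6 genes and the limit of 4 lists were not compared with all genes.

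**Figure D1:**
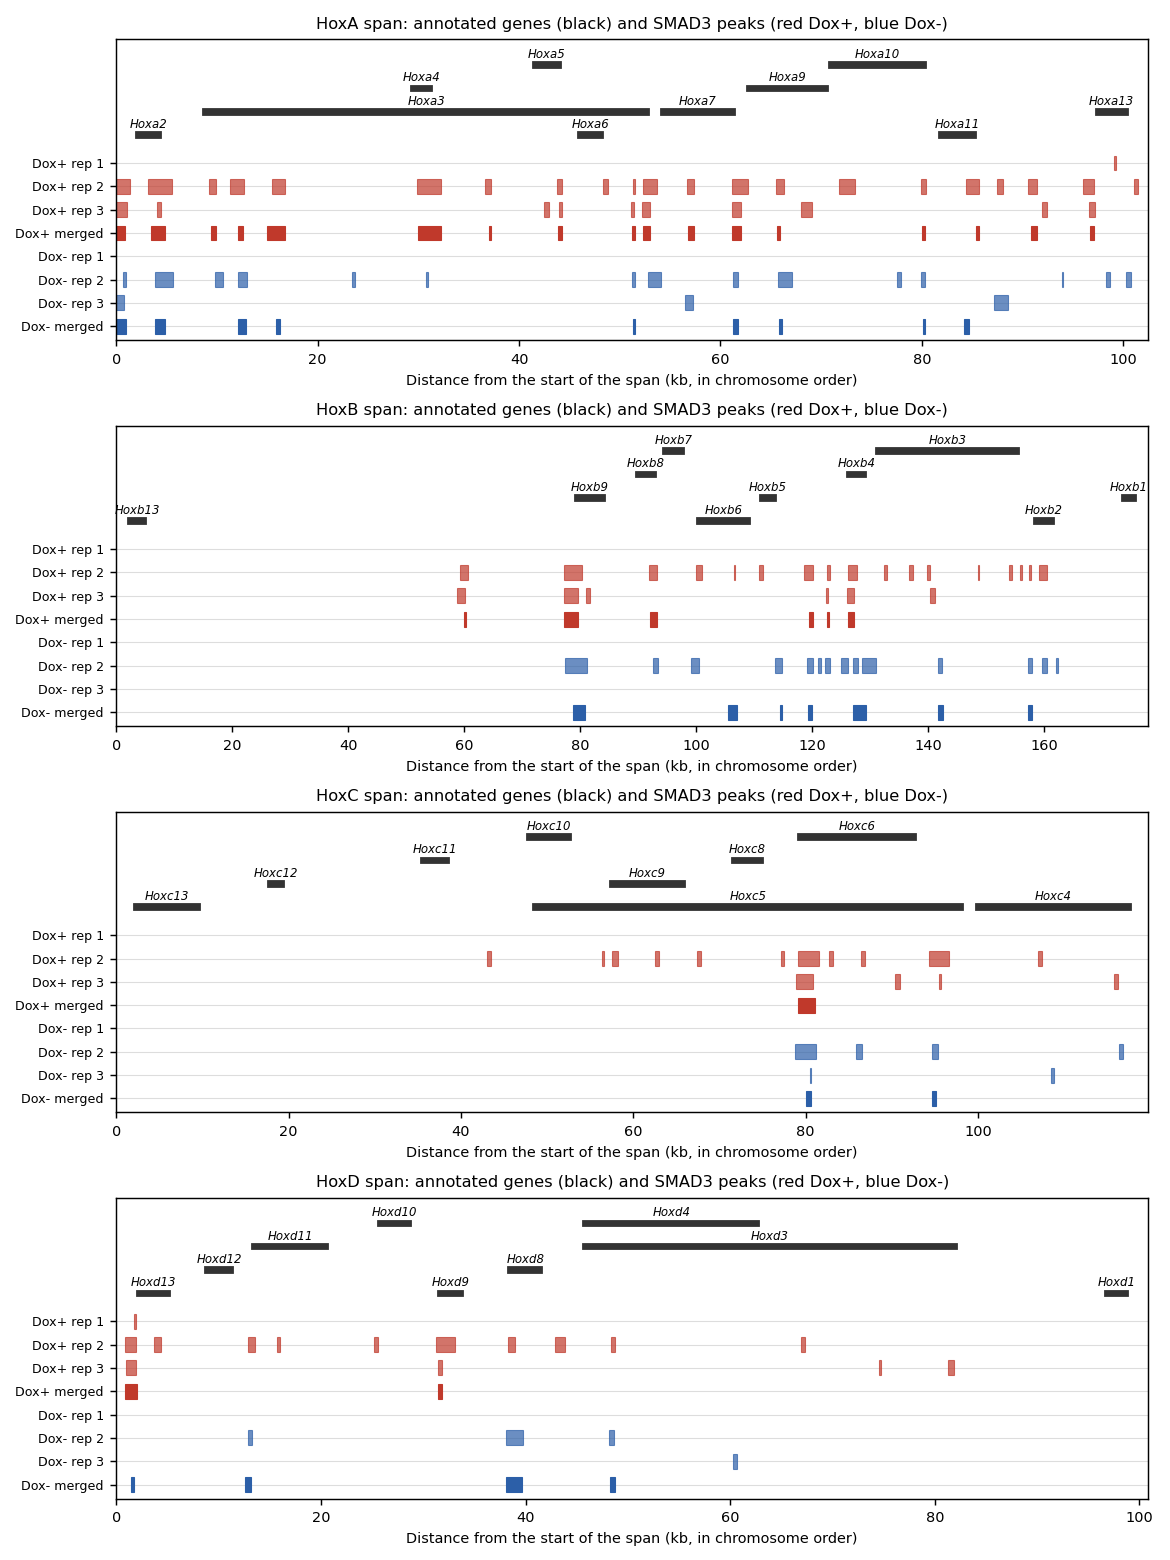
Map of the 4 cluster spans with the listed genes in black and, in rows, the SMAD3 peaks of each replicate and merged list; the x axis is the distance in kb from the start of the span in chromosome order, and peaks are cut at the span's ends. Red rows are Dox+ and blue rows Dox-. HoxA holds 17 merged Dox+ peaks and 9 merged Dox- peaks, the Hoxb13 end of HoxB and the Hoxc13 end of HoxC are nearly empty, and the row of Dox- replicate 1 holds no peak.

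Peaks covered 0.185%, 21.3% and 6.27% of the HoxA span in SMAD3 Dox+ replicates 1, 2 and 3, and 0%, 9.46% and 2.90% in SMAD3 Dox- replicates. For HoxB the shares were 0%, 8.77% and 3.79% with dox and 0%, 9.02% and 0% without. HoxC had 0%, 7.63% and 2.65% with dox and 0%, 3.50% and 0.393% without. HoxA had the largest share of the 4 spans in each of the 5 lists that held any Hox peak. HoxD had 0.176%, 7.53% and 2.09% with dox and 0%, 2.57% and 0.372% without. In every cluster the lists of the 2 groups overlapped, with replicate 2 of either group above replicates 1 and 3 of both.

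In kb, the mean covered length was 9.47 ± 11.1 (SD, n = 3 lists) with dox against 4.22 ± 4.96 without for HoxA, and 7.45 ± 7.82 against 5.37 ± 9.30 for HoxB. HoxC had 4.10 ± 4.64 against 1.55 ± 2.30, and HoxD 3.29 ± 3.85 against 0.988 ± 1.40. The difference between groups was smaller than the SD of the Dox+ lists in all 4 clusters. For the 4 spans together it was 12.2 kb in favour of Dox+, and it became -2.71 kb without Dox+ replicate 2 and 24.2 kb without Dox+ replicate 1.

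**Figure D2:**
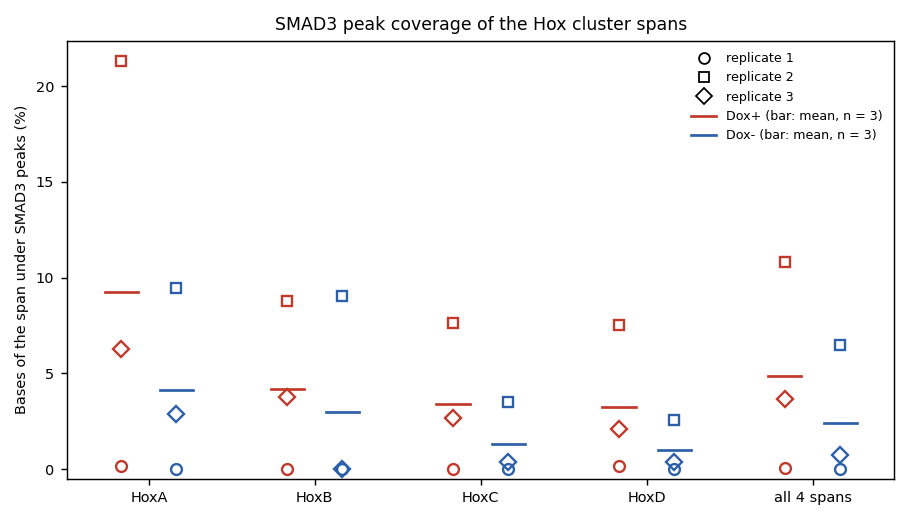
Percent of the bases of each Hox span under SMAD3 peaks, for each replicate list; circles, squares and diamonds are replicates 1, 2 and 3, red is Dox+ and blue Dox-, and the bars are group means (n = 3). HoxA in Dox+ replicate 2 stands highest at 21.3%, and the points of the 2 groups overlap in every span.

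Windows of all protein-coding genes together were covered less than the Hox spans in the 5 lists with a Hox peak: 0.00998%, 1.24% and 0.592% in Dox+, against 0.0733%, 10.8% and 3.68% for the 4 spans, and 0.0647%, 0.957% and 0.168% in Dox-, against 0%, 6.49% and 0.761%. Hox spans are dense in genes, and 38.7% of their bases lay within 1 kb of an annotated transcript start, against 5.88% of the genome. Among bases within 1 kb of a start, the share under peaks was 18.7% in the Hox spans and 5.99% in the genome for Dox+ replicate 2, and 10.7% and 4.84% for Dox- replicate 2. Among the other bases it was 5.84% and 0.295% for Dox+ replicate 2, and 3.82% and 0.223% for Dox- replicate 2. Dox- replicate 1 went the other way, with 0% of the Hox start-site bases and 0.419% of those in the genome. The 4 spans are 4 loci, and no test was made of these shares.

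Along the clusters the covered length was not even. With each span divided into 3 equal parts, the part with Hoxa2, Hoxa3 and Hoxa4 held 9.41 kb in Dox+ replicate 2, the middle part 5.96 kb and the part with Hoxa10, Hoxa11 and Hoxa13 6.45 kb. In Dox- replicate 2 the same 3 parts held 4.20, 3.52 and 1.97 kb. Replicate 3 had another order, with 1.44, 3.17 and 1.82 kb in Dox+ and 0.750, 0.834 and 1.39 kb in Dox-, so no part of HoxA led in every list. In HoxB the part with Hoxb1 to Hoxb4 held 7.88 kb and 8.79 kb in replicate 2 of Dox+ and Dox-, and the middle part 7.73 kb and 7.27 kb. In Dox+ replicate 3 the middle part led, with 4.11 kb against 2.13 kb. The part with Hoxb13, the only listed gene centred in it, held 0 kb in replicate 2 of both groups and 0.496 kb in Dox+ replicate 3. In HoxC the part with Hoxc4 and Hoxc6 held 5.50 kb and 3.12 kb in the same lists, and the part with Hoxc11, Hoxc12 and Hoxc13 held 0 kb in all 6 replicate lists. In HoxD the part with Hoxd9 to Hoxd13 held 0.177, 5.09 and 1.36 kb in the Dox+ lists and 0, 0.437 and 0 kb in the Dox- lists, so all 3 Dox+ lists had peaks there and 1 of the Dox- lists did. The merged lists held 1495 bp with dox and 930 bp without in the same part. The middle part of HoxD, with Hoxd3, Hoxd4 and Hoxd8, did not favour Dox+. It held 0, 2.46 and 0 kb in the Dox+ lists and 0, 2.15 and 0.375 kb in the Dox- lists. Merged, it held 0 bp with dox and 2164 bp without. The part with Hoxd1 held 0, 0.0410 and 0.746 kb in the Dox+ lists and 0 kb in the Dox- lists.

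Among HoxA genes, Hoxa2, which patterns the hindbrain and branchial arches, had the most of its window covered, on average 20.8% over the 6 lists. Its window held 0, 3726 and 1437 bp of peaks in Dox+ replicates 1, 2 and 3 and 0, 2075 and 750 bp in Dox- replicates. The groups overlapped, and replicates 2 and 3 of both had peaks there. A broad merged peak reaches into the same window from beyond its edge, at chr6:52158281-52161298 in Dox+ and chr6:52158457-52161342 in Dox-.

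Hoxa7, which acts in trunk vertebrae, followed with 11.6% covered on average, as 0, 3619 and 1675 bp in Dox+ and 0, 1812 and 834 bp in Dox-. Hoxa9, a regulator of blood progenitors, had 9.81%, as 0, 3135 and 1989 bp in Dox+ and 0, 1930 and 0 bp in Dox-. A region shared by both windows, chr6:52221575-52223115, held peaks of Dox+ replicates 2 and 3 and of Dox- replicate 2. Hoxa3, which is needed for the thymus and parathyroid, had 0, 8649 and 2005 bp in Dox+ and 0, 3715 and 0 bp in Dox-, over a window of 48275 bp that runs across Hoxa4, Hoxa5 and Hoxa6. Its RefSeq promoter, shown above, was touched in Dox+ replicates 2 and 3 and Dox- replicate 2.

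Hoxa4, a neck-level gene, carried the only Hox region that the authors' table lists for SMAD3 Dox+ against Dox-. Its window held 0, 2370 and 0 bp in Dox+ and 0, 194 and 0 bp in Dox-, so the peaks came from replicate 2 of both groups. The region, chr6:52190309-52192678, was 2370 bp wide, its center lay in an annotated Hoxa4 exon 259 bp from a Hoxa4 transcript start, and it also lies inside the annotated span of Hoxa3. The authors' mean log2 concentration (normalised reads in the region) was 4.97 in Dox+ and 3.06 in Dox-. The merged Dox+ list had a peak of 2285 bp there with a fold enrichment over input of 1.73, and the merged Dox- list had none.

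In HoxB, Hoxb9, which shapes the rib cage, had 18.4% of its window covered on average, as 0, 3087 and 3285 bp in Dox+ and 0, 3720 and 0 bp in Dox-. Hoxb4, known for expanding blood stem cells, had 15.1%, as 0, 1427 and 1134 bp in Dox+ and 0, 4132 and 0 bp in Dox-. Hoxb2, which acts in the hindbrain, had 8.16%, as 0, 1936 and 0 bp in Dox+ and 0, 1729 and 0 bp in Dox-. For each of these 3 genes the lists of the groups overlapped, and Dox- replicates 1 and 3 had no peak.

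In HoxC, Hoxc6, which acts at the thoracic level, had 9.60% of its window covered on average, as 0, 4303 and 2458 bp in Dox+ and 0, 3190 and 196 bp in Dox-. Hoxc5 had 4.57% of a window of 53987 bp, as 0, 8164 and 2650 bp in Dox+ and 0, 3785 and 196 bp in Dox-. Both windows hold the region chr15:102997865-103000705, one of only 2 in the 4 clusters that at least 2 lists of each group share. Hoxc9, which specifies thoracic motor neurons, had 2.62%, all from the 1993 bp of Dox+ replicate 2.

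In HoxD, Hoxd8 had 7.04% covered on average, as 0, 1436 and 0 bp in Dox+ and 0, 1654 and 0 bp in Dox-. Hoxd9, a limb and trunk gene, had 5.78%, as 0, 1860 and 387 bp in Dox+ and 0 bp in all 3 Dox- lists. Hoxd13, which shapes the digits and genitalia, had 6.88%, as 177, 1859 and 975 bp in Dox+ and 0 bp in all 3 Dox- lists. Hoxd13 was the only Hox gene with every Dox+ list above every Dox- list, and no Hox gene had every Dox+ list below. Among the 13492 protein-coding genes with a peak in any list, 0.133% were above in this way and 0.0445% below. The separation was lost with peaks at a −log10 q-value of at least 2, where the Hoxd13 difference fell from 1004 to 389 bp, and with each list held to its 420 strongest peaks, where it fell to 59.0 bp (exact permutation p = 1.00 for both).

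**Figure D3:**
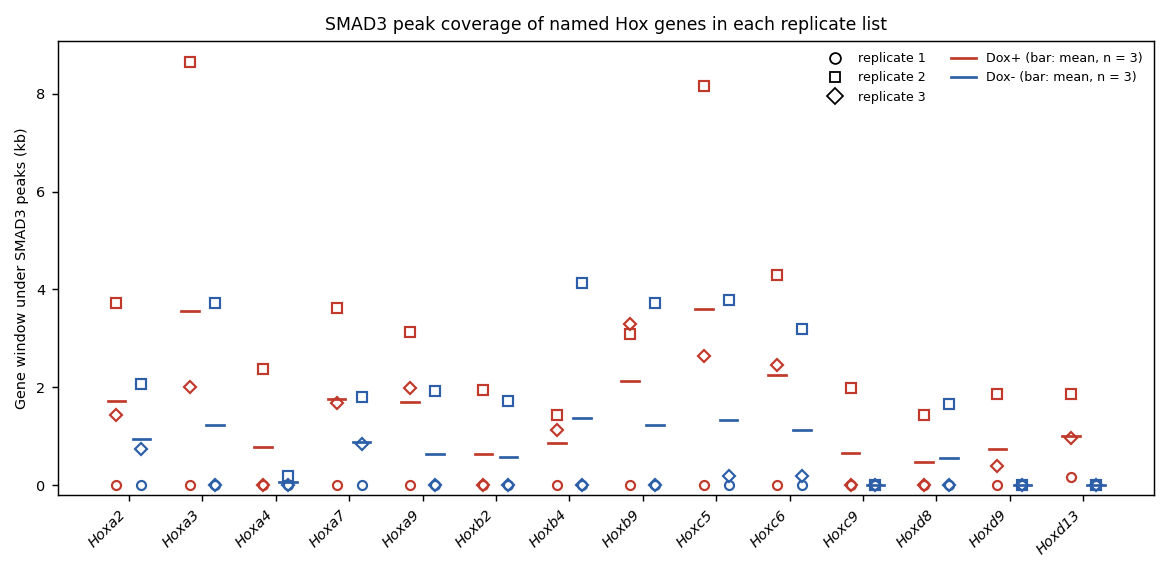
Length of each named Hox gene window under SMAD3 peaks, in kb, for each replicate list; circles, squares and diamonds are replicates 1, 2 and 3, red is Dox+ and blue Dox-, and the bars are group means (n = 3). Hoxd13 is the only gene with all 3 Dox+ points above all 3 Dox- points, which lie at 0, and replicate 2 is the highest point of most genes.

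Mean covered length was higher in Dox+ for 25 of the 30 Hox genes with any peak and lower for 5, with a median difference of 399 bp; over all 13492 genes it was higher for 73.4%, with a median of 162 bp. Hoxd13 had a mean of 1004 ± 841 bp (SD, n = 3 lists) with dox against 0 bp without, with p = 0.1 by the exact two-sided permutation test, the smallest that 3 against 3 lists can give, and an adjusted p of 1.00. The largest fall was at Hoxb4, with 854 ± 754 bp (SD, n = 3 lists) against 1377 ± 2386 bp, well within the spread of its lists. By this test 0 genes, Hox or other, had an adjusted p up to 0.05, and 0 had an unadjusted p below it. Without Dox+ replicate 2 the mean was higher in Dox+ for 10 of 28 Hox genes, and without Dox- replicate 2 for 30 of 30.

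The peaks in front of Hoxd13 made up the joined region chr2:74667115-74668281, which covers the RefSeq promoter shown above. Its peak had a fold enrichment over input of 2.19 in Dox+ replicate 1, 4.50 in Dox+ replicate 2 and 2.76 in Dox+ replicate 3, and the merged Dox+ peak 2.21 over 1107 bp. The Dox+ replicate 1 peak was among the weaker of its list, at rank 342 of 420 by fold, with a −log10 q-value of 0.580. No Dox- replicate list had a peak there, but the merged Dox- list held one of 303 bp with a fold of 2.31, so signal without dox was present once the replicates were pooled. The authors' table of differential binding does not list the region.

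Joining overlapping peaks of the 6 SMAD3 lists and keeping the regions present in at least 2 gave 13218 regions, of which 31 lay in the Hox spans: 14 in HoxA, 9 in HoxB, 3 in HoxC and 5 in HoxD. All 31 included a peak of Dox+ replicate 2, as did 96.2% of all 13218 regions, and 10 Hox regions were left without that list and 17 without Dox- replicate 2. Of the 31, 14 rested on replicate 2 of Dox+ and Dox- alone. Both groups had a peak in 26, Dox+ lists alone in 5 (16.1%, against 13.3% of all regions), and Dox- lists alone in 0 (against 2.32%). The 5 regions seen with dox only were at the promoters of Hoxa5, Hoxd9 and Hoxd13, beside Hoxa13, and at Gm53, 19377 bp from the Hoxb9 start. The authors' table lists 1 of the 31 as higher in Dox+ (8.90% of all regions), the Hoxa4 region above, and 0 as lower (6.84%).

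In the merged lists, SMAD3 peaks touched 18 of 38 Hox genes in Dox+ (46.8% of all genes) and 20 in Dox- (42.0%). Both lists touched 11 genes, the Dox+ list alone 7, the Dox- list alone 9 and neither list 11. Shares of all genes in the same classes were not taken, so these counts are not shown to be particular to Hox genes. In the Dox+ list alone were Hoxa4, Hoxa5, Hoxa6, Hoxa13, Hoxb7, Hoxb8 and Hoxd9, while Hoxb2, Hoxb3, Hoxb5, Hoxb6, Hoxd3, Hoxd4, Hoxd8, Hoxd11 and Hoxd12 were in the Dox- list alone, which held no HoxA gene that the Dox+ list lacked. Each list is 1 pool without replicate error, and the replicate lists did not keep this split for most of these genes. All 9 genes of the Dox- list alone had a peak in Dox+ replicate 2. Of those in the Dox+ list alone, Hoxa4, Hoxa13, Hoxb7 and Hoxb8 had a peak in Dox- replicate 2. Hoxa5, Hoxa6 and Hoxd9 had none in any Dox- replicate list. Of the 26 merged Dox+ peaks, 14 (53.8%) overlapped a peak in at least 2 replicate lists of the group, against 68.9% of all merged Dox+ peaks. Of the 22 merged Dox- peaks, 2 did (9.09%), against 35.2% of all, and 4 overlapped no replicate peak.

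Fold enrichment over input ranged from 1.58 to 3.62 among the merged Dox+ Hox peaks, with a median of 2.03 against 2.30 for all merged Dox+ peaks. In Dox- it ranged from 1.52 to 4.56, with a median of 2.25 against 2.32. The 3 highest in Dox- lay at Hoxb4 (4.56), Hoxb3 (4.14) and Hoxb2 (3.97), in the top 3.16%, 4.87% and 5.90% of that list by fold. In Dox- replicate 2, the only Dox- replicate list with HoxB peaks, the highest fold in HoxB was 2.87. These 3 pooled values were thus above every HoxB peak of that list. In HoxA the same list reached 4.69. The highest fold of any Hox peak in a replicate list was 5.53, at Hoxb4 in Dox+ replicate 2. The highest merged Dox+ peak (3.62) lay at the Hoxa11 promoter; Hoxa11, Hoxb3 and the genes named in the split above were chosen after their values were seen.

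Merged Hox peaks were poorer in G and C than SMAD3 peaks at large. The median GC content of the central 300 bp was 53.8% in Dox+ and 49.5% in Dox-, against 62.3% and 62.0% for all merged peaks, and the median number of CpG was 14.0 and 10.5 against 21 and 20.0. The center lay within 1 kb of an annotated transcript start for 17 of 26 Dox+ peaks (65.4%, against 71.9% of all) and 14 of 22 Dox- peaks (63.6%, against 69.2%). In Dox+, 12 centers lay in exons of listed genes, 4 in introns and 10 outside them, and in Dox- 6, 9 and 7. Outside all listed windows lay 4 merged Dox+ peaks and 1 merged Dox- peak, among them the Dox+ peak chr11:96252303-96252568 at Gm53 and chr6:52251232-52251825 between Hoxa11 and Hoxa13. Peaks of 1 cluster are neighbours and not replicates, so no test was made of these features.

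**Figure D4:**
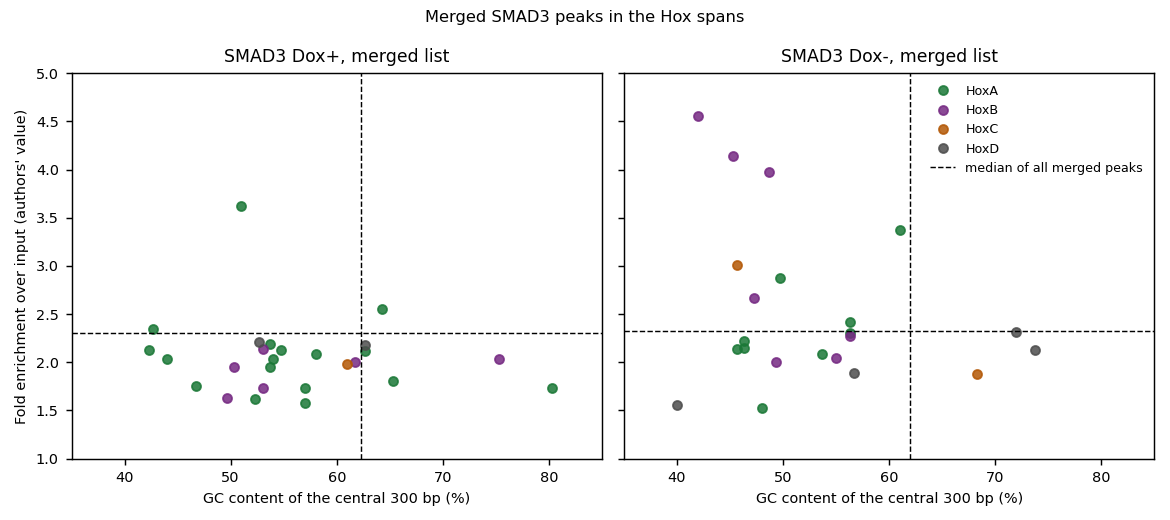
Fold enrichment over input against GC content of the central 300 bp for each merged SMAD3 peak in the Hox spans, Dox+ on the left and Dox- on the right, coloured by cluster; dashed lines are the medians of all merged peaks of that list. Most Hox peaks lie left of the vertical line (62.3% in Dox+, 62.0% in Dox-), and the 3 HoxB peaks with a fold of 3.97 to 4.56 lie in Dox- at a GC content of 42.0% to 48.7%.

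The same 300 bp were searched on both strands for 6 motifs. The SMAD half-site CAGAC was in 10 of 26 Dox+ peaks (38.5%, against 47.5% of all merged Dox+ peaks) and 14 of 22 Dox- peaks (63.6%, against 48.2%). The OCT4 octamer ATGCAAAT, the SMAD palindrome GTCTAGAC, the AP-1 site TGACTCA, the KLF site GGGTGTGG and the HOX-PBX site TGATTNAT were each in at most 1 Hox peak of a list. Of the RefSeq promoter table, 24 promoters of 22 listed genes matched, and 9 of the 24 (37.5%) held a half-site, against 49.6% of all RefSeq promoters. Of these 22 genes, Dox+ replicates 1, 2 and 3 touched a promoter of 1, 11 and 5, where all genes gave 1.02%, 34.2% and 23.3%. Dox- replicates touched 0, 7 and 0, where all genes gave 4.39%, 28.5% and 8.07%. In the merged lists it was 6 in Dox+ (28.4% of all genes) and 4 in Dox- (24.4%), so Hox promoters were not touched more often in every list. A match is a description of sequence and not a measured site.

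OCT4 peaks were absent from all 4 clusters. The merged OCT4 Dox+ list held 2022 regions and touched 0 of the 38 windows (3.90% of all genes), and the replicate lists, with 1181, 1115 and 102 regions, touched 0 as well. The count was also 0 with 10 kb on each side of each gene, where the merged list touched 4.85% of all genes. The nearest merged OCT4 peak lay 433 kb from the HoxD span, 668 kb from HoxB, 676 kb from HoxC and 1377 kb from HoxA. Within 1 Mb of a span the merged list held 1 peak for HoxB, 1 for HoxC, 1 for HoxD and 0 for HoxA. The list is sparse, covering 0.0175% of the genome, and the 4 spans are together 501 kb. Hox windows are also shorter than those of all genes, with medians of 7496 and 21425 bp. No such distances were taken for other loci, so the absence of OCT4 peaks is not shown to be particular to the Hox clusters. The authors' table of OCT4 against SMAD3 in Dox+ cells lists 1 Hox region, chr11:96269494-96272580 at Hoxb9, with a mean log2 concentration of 4.37 for SMAD3 and 2.88 for OCT4. It was 1 of 15 Hox regions of those 6 lists present in at least 2 of them, and 6.64% of all 9903 such regions are listed with SMAD3 higher. Precipitations with different antibodies were compared in that table, so the difference is between libraries of 2 kinds.

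The genes that work with or on the Hox clusters were read in the same way, as a list of 18: PBX, MEIS and PKNOX cofactors, CDX and EVX homeobox genes, and the MLL and Polycomb genes Kmt2a, Ezh2, Eed and Suz12. SMAD3 Dox+ replicates touched 0, 14 and 11 of them, where all genes gave 2.04%, 57.2% and 41.2%. SMAD3 Dox- replicates touched 5, 12 and 6, where all genes gave 8.59%, 50.1% and 17.9%. The merged SMAD3 lists touched 12 each, against 46.8% of all genes in Dox+ and 42.0% in Dox-. The merged OCT4 list touched 3 of the 18, against 3.90% of all genes, and no test of the difference from the Hox genes was made. It touched Meis2 and Pbx3 with 2 peaks each and Pknox2 with 1, while Kmt2a was touched in OCT4 replicate 3 alone (222 bp). Meis2 was touched in OCT4 replicate 1 (289 bp), and Pbx3 in replicates 1 (217 bp) and 2 (230 bp). These windows are long, 206776 bp for Meis2 and 205686 bp for Pbx3.

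The authors' table of OCT4 against SMAD3 in Dox+ cells lists a region at 3 of the 18 genes. At Meis2, chr2:115981194-115981722 had a mean log2 concentration of 5.15 for OCT4 and 2.41 for SMAD3. At Pbx3, chr2:34175748-34176849 had 5.67 for OCT4 and 3.09 for SMAD3. At Suz12, a core Polycomb subunit, chr11:79992656-79993401 had 1.56 for OCT4 and 3.59 for SMAD3. These are group means with no value per replicate, and no test was made of them here.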

How the data were processed

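Per the labels and the study's methods, reads were checked with FastQC (version 0.11.5 per the submitters' processing notes), trimmed with Trimmomatic (0.36) and aligned with Bowtie2 to mm10. The authors removed duplicates (Picard 2.3.0), reads of low mapping quality and blacklisted reads, and called peaks with MACS2 (2.1.0) against the pooled inputs, per replicate and per pooled group: narrow OCT4 peaks at a q-value of 0.01 and broad SMAD3 peaks at a cutoff of 0.1. Each deposited peak has a fold enrichment over input (a linear ratio), a −log10 p-value and a −log10 q-value, which for broad peaks are averages over the region. The authors' deposited tables of differential binding (DiffBind 1.16.3) hold a log2 concentration per group, used here as the authors' mean, and further columns for the authors' own fold, p-value and FDR, which were not used; a site is listed when its FDR is at most 0.1 and its log2 fold at least 1 in size. Signal matrices around OCT4 peaks and gapped-peak files were not used, since no OCT4 peak lies in a Hox span.

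Overlap meant at least 1 shared bp. Covered length is the union of a list's peaks inside a window, in bp. Per gene, the 3 Dox+ and 3 Dox- SMAD3 lists were compared with an exact two-sided permutation test, adjusted by Benjamini-Hochberg over all 13492 genes with a peak; 0.1 is the smallest p it can give. Named genes are those overlapped by a listed region or an OCT4 peak and, in each cluster, the 3 with the largest mean covered share; other genes named with values are marked or only counted. The members and lists were chosen with earlier results of these data known. Alternatives were other flanks, a −log10 q-value of at least 2, equal list lengths, lists left out and a replicate block, and 3 counts without each list were added after seeing the data. Overlaps and the permutation test were first tested on simulated data with known answers. Python 3.11.15, numpy 2.4.6, pandas 2.3.3, scipy 1.17.1, pysam 0.24.0 and matplotlib 3.10.9 were used. Promoter sequences are from RefSeq (GRCm38.p6); peaks were within the chromosomes of that assembly. One result on the cofactor list is not reported here.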

Additional observations from a re-analysis of the deposited data

How the results depend on the processing

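Wider and narrower gene windows and centers in place of overlaps kept the merged counts within 1.5 times of the reported ones, and OCT4 stayed at 0 genes throughout. With a −log10 q-value of at least 2, the genes with a merged SMAD3 peak fell to 1 in Dox+ and 7 in Dox-; with merged peaks overlapped by at least 2 replicate lists, Dox- fell to 3. No alternative gave a Hox gene an adjusted p up to 0.05, with smallest adjusted values from 0.663 to 1.00 by the exact permutation test. The 25 genes with a higher mean in Dox+ became 2 of 2 with each list held to its 420 strongest peaks, 12 of 18 at a −log10 q-value of at least 2, and 10 to 30 without single lists. At that q-value Hoxa3 turned to -283 bp, Hoxa7 to -604 bp and Hoxb4 to 476 bp. Per Mb covered by the list, Hoxa2 turned to -31.1, Hoxa7 to -29.1 and Hoxb2 to -5.15 bp. On that scale the 4 spans together had 1479 bp per Mb more in Dox+, above 1 SD (919). Dox+ replicates 1, 2 and 3 had 2995, 3156 and 2480 bp per Mb, and Dox- replicates 0, 2413 and 1779. The 2995 rests on 367 bp of peaks in a list that covers only 0.123 Mb, and the 0 is that of the short Dox- replicate 1. Leaving out single lists, the difference ranged from -223 to 1640 bp for Hoxa2, -236 to 4089 for Hoxa3, -64.7 to 1120 for Hoxa4, -44.5 to 1765 for Hoxa7 and -2 to 4080 for Hoxc5, each turned by leaving out Dox+ replicate 2. It ranged from -576 to 645 bp for Hoxb2, also turned by Dox- replicate 1 or 3 (-219), from -1212 to 854 for Hoxb4, turned by Dox- replicate 2, and from -551 to 479 for Hoxd8, turned by Dox- replicate 2 and by Dox+ replicate 1 or 3 (167). For the spans it ranged from -0.911 to 9.90 kb for HoxA, -1.98 to 7.45 for HoxB, 0.0318 to 4.60 for HoxC and 0.155 to 3.86 for HoxD. The cause was not tested. Without single lists, a choice made after seeing the data, genes in at least 2 lists ranged from 2 to 17 in Dox+ and 0 to 8 in Dox-, and Hox regions from 10 to 31. Relative to regions in any list, the table lists 3.58% as higher and 2.76% as lower.

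Replicate numbers are shared by the groups, and deviations from the group means correlated at 0.69, 0.64 and 0.06 for pairs 1, 2 and 3. Dox- replicate 3 correlated best with Dox+ replicate 1 (0.57). The deviations of 3 lists from their mean sum to 0, so these values cannot tell whether the numbers mark pairs. The main test left the lists unpaired, and the replicate block was run as an alternative. With the replicate block, 0 Hox genes passed, at a smallest possible p of 0.25, the 25 genes stayed 25, and the mean difference of same-numbered lists was 5.26 ± 6.17 kb (SD, n = 3) for HoxA, 2.10 ± 4.03 for HoxB, 2.55 ± 2.48 for HoxC and 2.31 ± 2.47 for HoxD. The planned OCT4 and SMAD3 signal at Hox OCT4 peaks gave no value, since there is no such peak. Lists 1 of both groups are short, and the depth behind every list is unknown, so a gene without a peak is not shown to be unbound.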

Other observations

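In the joined regions of all 6 SMAD3 lists, 81 lay in the Hox spans, and 50 of them came from 1 list alone, 28 of these from Dox+ replicate 2 and 11 from Dox- replicate 2. The share of Hox regions present in at least 2 lists was 38.3%, against 40.3% of the 32813 regions of the genome. Dox+ replicate 1, the shortest SMAD3 list, held 2 Hox peaks, 190 bp at Hoxa13 and 177 bp at Hoxd13, while 2.04% of all genes had a peak in it (Hoxa13 is named after its values were seen). Both were among the weaker peaks of that list, at ranks 345 and 342 of 420 by fold, with −log10 q-values of 0.531 and 0.580. Dox- replicate 1, with 1656 peaks, held no Hox peak, while 8.59% of all genes had a peak in it.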
